A study of Mus musculus with 16 samples.

Results

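The comparison between malnutrition with bacterial gavage and the control diet set 7 MAL-BG libraries against 4 CON libraries of CD11b+ brain cells, which are 11 of the 16 libraries of the series. The other 5 libraries came from malnourished mice without bacteria (MAL). Every gene with more than 10 counts in at least 4 of the 16 libraries was included, which gave 14565 of the 24421 rows of the count table. All groups were C57BL/6J mice taken after weaning and, per the Methods, female. CON mice ate standard chow, and MAL mice ate an isocaloric diet low in fat and protein for 1 month, with both groups gavaged with saline. MAL-BG mice ate the same low fat and protein diet and were gavaged with a mix of E. coli and Bacteroidales species. No library of the table came from mice given the bacteria on the standard diet, so the difference described here is that of diet and bacteria together, and the share of each cannot be told apart in this comparison. The labels name cortical tissue and the Methods name whole cerebra. CD11b, the product of Itgam, is an integrin chain that microglia and further myeloid cells carry, and these cells were enriched with CD11b antibody on magnetic beads after enzymatic dissociation. The counts of MAL-BG libraries (14191791 to 18705202) were all above those of CON libraries (10312703 to 13461574). The labels do not say that each library is a separate mouse, so p-values measure the spread between these libraries.

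Microglia are the resident macrophages of the brain parenchyma. They watch the tissue with fine processes, engulf debris and synaptic material through complement, TREM2, and other receptors, and break it down in lysosomes with cathepsins and glycosidases. On bacterial or injury signals, receptors of the Toll-like family switch on NF-kB, which drives transcription of cytokines such as interleukin 1 and tumor necrosis factor and of its own inhibitors. The same early genes also respond to enzymatic dissociation of tissue.

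Values are CPM, read counts divided by the scaled library total and multiplied by 1000000, and a differentially expressed gene (DEG) had a Benjamini-Hochberg adjusted p under 0.05 in edgeR's quasi-likelihood test and an absolute log2 fold change above 0.58. Fold changes are MAL-BG minus CON on the log2 scale. Of the 14565 genes, 4816 were DEGs (33.1%), 1657 of them higher in MAL-BG (11.4%) and 3159 lower (21.7%). These are the background shares for every list below, and all genes together had a median of -0.04. By the adjusted p alone 19.9% of genes were higher and 25.2% lower (45.1% in either direction), and 6.34% were higher DEGs and 10.2% lower DEGs whose CON and MAL-BG libraries did not overlap. The split depended on centering, since offsets that removed the trend of each library on transcript length and GC content, together with mean log2 CPM scaling, gave 3428 genes higher and 2159 lower (61.4% of DEGs higher, against 34.4%) and moved the median of all genes to 0.24. Falls were larger than rises, with a median size of 1.59 in lower and 0.81 in higher DEGs, and 1073 genes fell by more than 2 while 61 rose by more than 2. For 3634 genes (25%) the 95% confidence interval lay within 0.58 of zero, and 6115 genes (42%) were neither called nor bounded in this way.

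Calls differed with level, abundant genes being more often higher and scarce genes more often lower. Of the 83 genes with a mean of at least 1000 CPM, 43.4% were higher and 8.43% lower in MAL-BG. Of the 868 genes with a mean under 1 CPM, 2.19% were higher and 40.7% lower. This mean is taken over more MAL-BG than CON libraries, so at equal CON level a fall places a gene lower than a rise does. Scarce genes also pass the count filter only through their higher libraries, which for falling genes can be those of CON or MAL. The split by level is therefore partly set in advance, and its size without this was not tested. Genes with long transcripts were also more often lower, with 32.4% lower in the quartile with the longest transcripts and 15% in the quartile with the shortest. In CON libraries the 1657 higher DEGs took 16% to 20.4% of the scaled counts and the 3159 lower DEGs 13.9% to 21.3%. In MAL-BG libraries these shares were 27.3% to 34% and 5.29% to 8.01%, without overlap in either, the genes having been chosen for this difference.

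**Figure D1:**
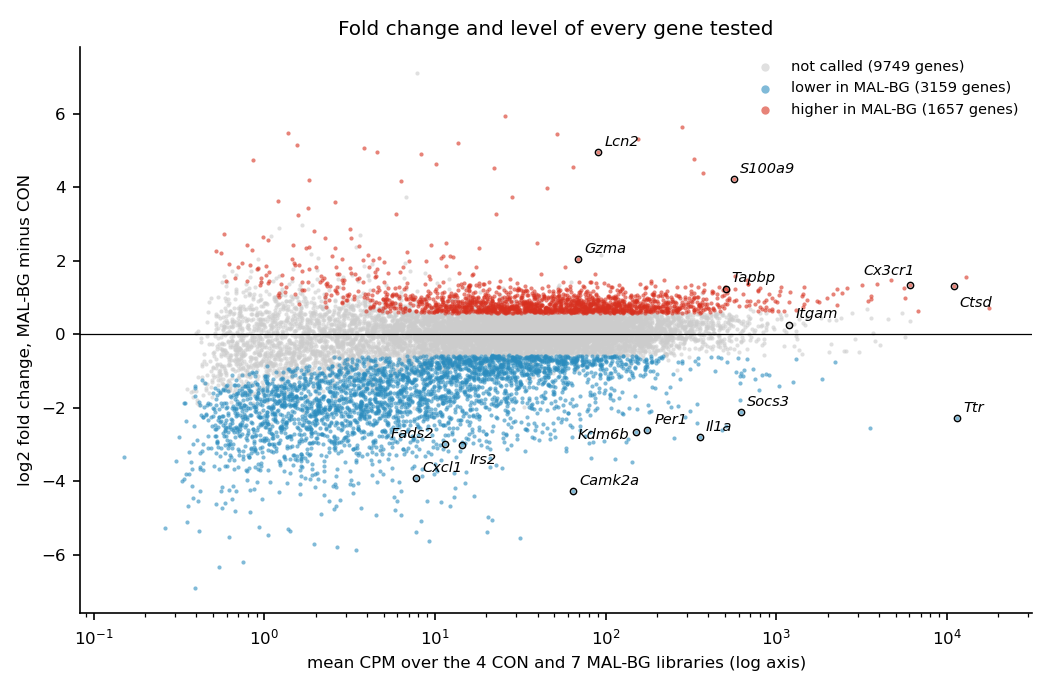
Log2 fold change of MAL-BG minus CON (vertical axis) against the mean CPM over the 11 libraries (horizontal axis, log scale) for the 14565 genes tested. Red points are the 1657 higher DEGs, blue points the 3159 lower DEGs, and gray points all others. The neutrophil genes Lcn2 and S100a9 lie above 4, and 2990 of the 3159 falls lie under 100 CPM, with Ttr and Socs3 among the exceptions.

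Before the gene groups, the purity of the libraries was set side by side, because several libraries stood apart. Itgam was 1173, 998, 1118, and 935 CPM in the 4 CON libraries and 1142 to 1461 CPM (median 1215) in MAL-BG, and its interval was bounded (log2 fold change 0.26, adjusted p = 0.113), although most of its annotated exons overlap a readthrough transcript. The summed CPM of 17 choroid plexus epithelium genes, which mark the secretory lining of the ventricles, was 14441 to 56043 in CON and 1809 to 16957 in MAL-BG. The groups overlapped in 1 pair, since CON replicate 1 had 14441 and MAL-BG replicate 3 had 16957. Summed markers of neurons were 136 to 671 CPM in CON and 32.3 to 104 in MAL-BG, and those of ependyma, the ciliated ventricular lining, 211 to 389 and 48.7 to 166, with no overlap in either. The choroid plexus sum of MAL libraries was 6716 to 43883 CPM, and MAL replicates 1 and 4 (12908 and 6716 CPM) were under every CON library. The sum of 24 homeostatic microglial genes was 25715 to 40327 CPM in CON, 26586 to 43117 in MAL, and 49053 to 68696 in MAL-BG. In bulk libraries fewer cells of a type and less RNA per cell cannot be told apart, and the part of these markers in the results below was not tested beyond the fits given beside them.

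Each library was placed on the scale from the CON mean (0) to the MAL-BG mean (1) of every DEG. A placed library was left out of the mean of its own group, but the DEGs were chosen from these same libraries. CON replicate 1 had a median of 0.35 over higher and 0.42 over lower DEGs, while the other 3 CON libraries lay between -0.24 and 0.00. Of the MAL libraries, replicate 4 had 0.49 over higher and 0.50 over lower DEGs, and the others lay between -0.09 and 0.23. MAL-BG replicate 3 had 0.61 over lower DEGs, and MAL-BG replicate 6 had 0.64 over higher DEGs. MAL-BG replicate 5 differed in blood cell genes, with a summed CPM of neutrophil genes of 15387 against 631 to 3590.4 in the other 6 MAL-BG libraries and 520.5 to 1255 in CON. Without CON replicate 1 and MAL-BG replicates 3 and 5, a choice made after seeing the data, 2125 genes were higher and 3754 lower, which included 1520 and 2962 of the DEGs above. With the log2 summed choroid plexus markers as a covariate, also chosen after seeing the data, 937 genes were higher and 1406 lower.

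**Figure D2:**
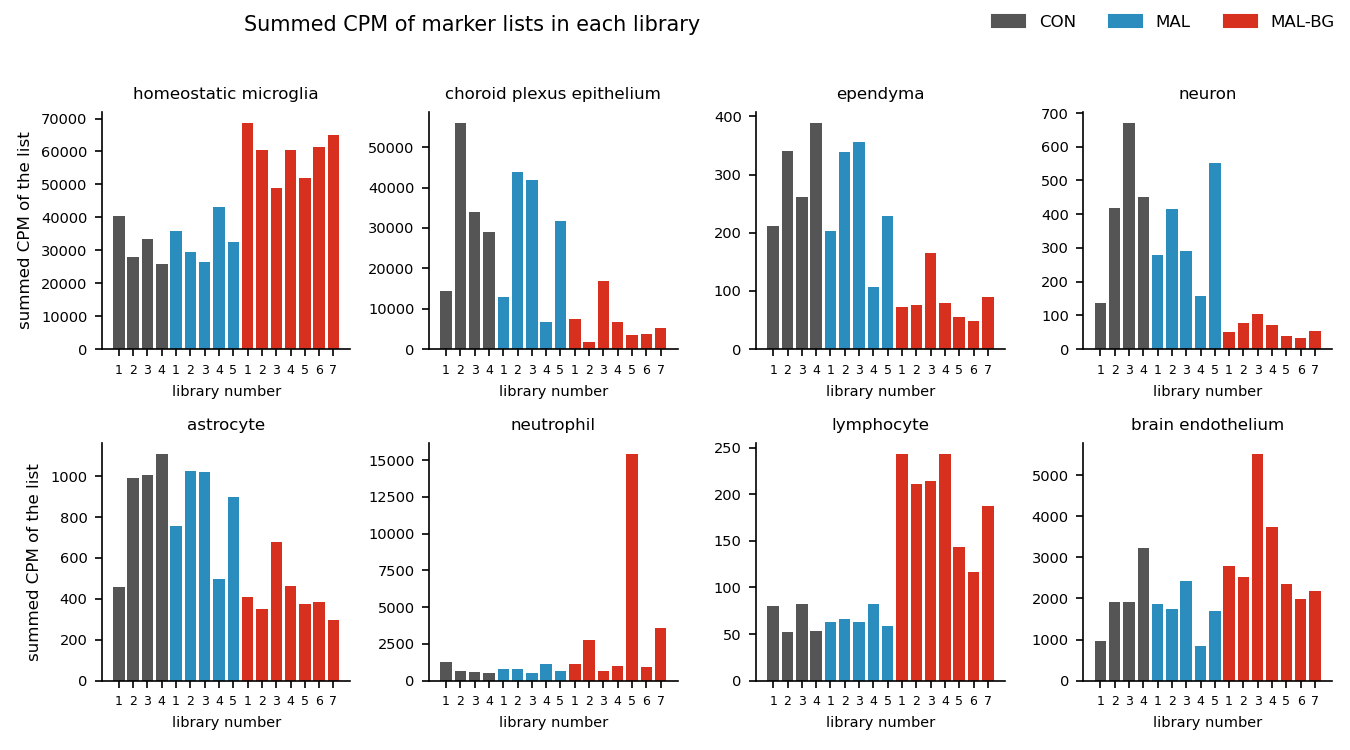
Summed CPM of 8 marker lists (vertical axes) in each of the 16 libraries (horizontal axes, library number within a group). Bars are single libraries, gray for CON, blue for MAL, and red for MAL-BG. Choroid plexus, ependymal, neuronal, and astrocyte sums were lower in most MAL-BG libraries than in most CON libraries, and CON replicate 1 and MAL replicate 4 were low as well, while the neutrophil sum was high in MAL-BG replicate 5.

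Genes of mature, homeostatic microglia were higher in MAL-BG. Of 24 tested, 13 were higher DEGs and 0 were lower, with a median of 0.72 on the log2 scale, and for 8 there was no overlap between CON and MAL-BG libraries (9.83% of all genes were above CON in this way). Cx3cr1, the fractalkine receptor through which neurons signal to microglia (chr9:120048683-120068296 on GRCm38.p6), was 4359, 2489, 3071, and 2383 CPM in the 4 CON libraries and 4613 to 11430.0 CPM (median 8139) in MAL-BG (log2 fold change 1.33, SE 0.268, adjusted p = 9.81e-04). All MAL-BG libraries were above CON, but MAL replicate 4, with 5489.8 CPM, was above the lowest of them. Tmem119, a surface marker of microglia, was 1656, 1054, 1358, and 951 CPM in CON and 1578 to 3249 CPM (median 2625) in MAL-BG (log2 fold change 1.08, SE 0.206, adjusted p = 6.26e-04), and 1 MAL-BG library fell within the CON range. Selplg, a selectin ligand, rose with a log2 fold change of 1.13 (adjusted p = 2.96e-04). Not all identity genes moved. P2ry12, the ADP receptor of microglial processes, ranged from 909.8 to 3825 CPM (median 2078) in MAL-BG, wider than its CON values of 1795, 1691, 1929, and 1444 CPM (log2 fold change 0.38, adjusted p = 0.311). Csf1r, the receptor on which microglial survival depends, was 6587, 4403, 5340.4, and 4164 CPM in CON and 3445 to 9889 CPM (median 5422) in MAL-BG, and was not called (log2 fold change 0.37, adjusted p = 0.250). With the choroid plexus covariate the list had 5 higher and 1 lower DEGs.

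Lysosomal enzymes were higher. Of 32 cathepsins and lysosomal hydrolases, 15 were higher DEGs and 0 lower (median 0.57). Ctsd, cathepsin D, the major aspartic protease of lysosomes, was 6846, 5103, 5943, and 4599.6 CPM in CON, 4147 to 6068 CPM in MAL, and 10340.4 to 18616 CPM (median 14106) in MAL-BG (log2 fold change 1.31, SE 0.183, adjusted p = 6.95e-05). A readthrough transcript shares part of its exons. Ctss, the cysteine protease cathepsin S, was 4129, 3105, 3865, and 2996 CPM in CON and 5151 to 9036 CPM (median 6246) in MAL-BG (log2 fold change 0.97, SE 0.187, adjusted p = 6.86e-04). Both lay above CON in every MAL-BG library. Lgmn, the asparaginyl endopeptidase that matures cathepsins, rose (log2 fold change 1.47, adjusted p = 2.24e-04), and Grn, the lysosomal protein progranulin, rose as well (log2 fold change 1.23, adjusted p = 2.15e-04). Glb1, the lysosomal beta-galactosidase, had the smallest p of the list and was 61, 66.6, 67.1, and 59.5 CPM in CON and 89.1 to 125 CPM (median 105) in MAL-BG (log2 fold change 0.74, SE 0.100, adjusted p = 5.48e-05). The summed CPM of the list was 26950.1 to 38860.5 in CON and 54236 to 78232 in MAL-BG. The list kept 10 higher and 0 lower DEGs with the choroid plexus covariate.

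The proton pump and membrane of the lysosome moved less. Of 24 such genes, 5 were higher DEGs and 0 lower (median 0.38). Laptm5, a lysosomal membrane protein of blood cells, was 2573, 1646, 1989, and 1613 CPM in CON and 3177 to 7368 CPM (median 5183) in MAL-BG (log2 fold change 1.35, SE 0.246, adjusted p = 4.61e-04). Lamp1, the main membrane glycoprotein of lysosomes, was 824, 728, 808, and 733 CPM in CON and 1102 to 1669 CPM (median 1477) in MAL-BG (log2 fold change 0.87, SE 0.137, adjusted p = 1.67e-04). Both were above CON in every MAL-BG library. The letters TCACGTGA, bound by factors of lysosomal genes, were in the promoter windows of 4 of the 19 genes of this list that had one (21.1%), against 2.04% of the tested genes, but 0 of these 4 genes were DEGs. Of the cathepsins and hydrolases, 2 of 24 with a window had the letters (8.33%). The pump and membrane list had 5 higher and 0 lower DEGs with the choroid plexus covariate.

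**Figure D3:**
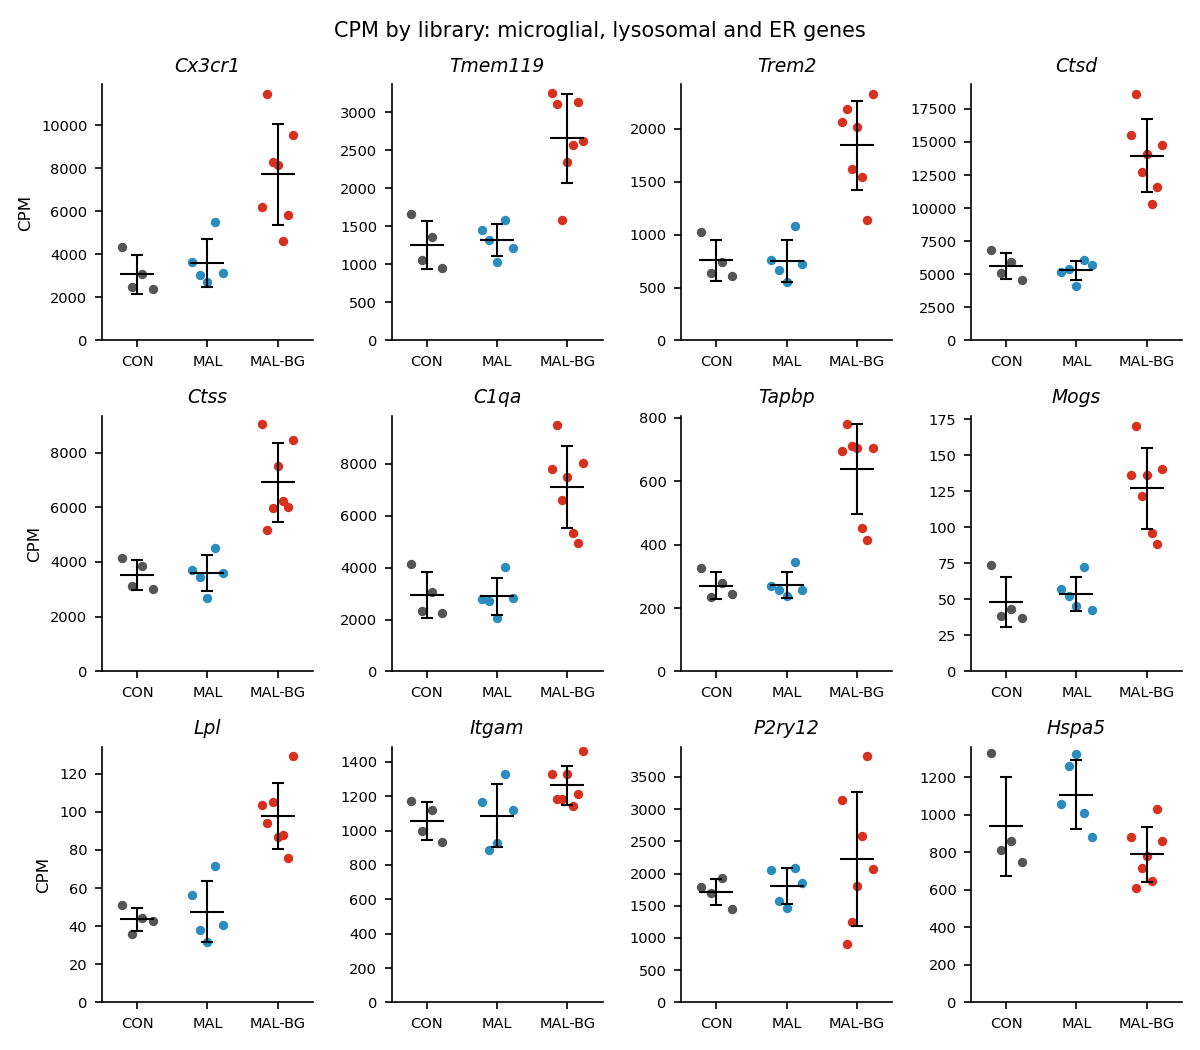
CPM (vertical axes) of 12 microglial, lysosomal, and endoplasmic reticulum genes in each CON, MAL, and MAL-BG library. Points are libraries, horizontal bars are means, and whiskers are 1 SD. Ctsd, Tapbp, and Mogs lay above every CON and MAL library in all 7 MAL-BG libraries, whereas Itgam, P2ry12, and Hspa5 overlapped.

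Receptors and opsonins of engulfment were partly higher. Of 28 complement and engulfment genes, 8 were higher DEGs and 1 was lower (median 0.33). C1qa, a chain of the complement protein C1q that tags synapses and debris, was 4153, 2340.4, 3062, and 2260.0 CPM in CON and 4934 to 9489 CPM (median 7509) in MAL-BG (log2 fold change 1.27, SE 0.231, adjusted p = 4.67e-04). Its partner chains C1qb and C1qc had log2 fold changes of 0.89 (adjusted p = 0.00137) and 0.96 (adjusted p = 0.00118). Trem2, a lipid-sensing receptor of microglia (chr17:48346401-48352276), was 1029, 639, 742, and 613 CPM in CON and 1137 to 2331 CPM (median 2020.4) in MAL-BG (log2 fold change 1.29, SE 0.223, adjusted p = 3.28e-04). Trem2 and C1qa were above CON in all MAL-BG libraries. Sirpa, the receptor for the "do not eat me" signal CD47, was 2403, 1313, 1544, and 1260.0 CPM in CON and 2817 to 5666 CPM (median 3864) in MAL-BG (log2 fold change 1.33, SE 0.241, adjusted p = 4.64e-04). With the covariate this list had 3 higher and 4 lower DEGs.

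Genes of disease-associated microglia, a state described around amyloid plaques, gave few calls. Of 22 tested, 4 were higher, a share above the background of 11.4%, and 1 lower, under the background of 21.7% (median 0.21). Lpl, lipoprotein lipase, was 51.1, 36.1, 44.4, and 42.8 CPM in CON, 31.8 to 71.6 CPM in MAL, and 75.9 to 129 CPM (median 94.3) in MAL-BG (log2 fold change 1.16, SE 0.201, adjusted p = 3.16e-04). Cst7, the cathepsin inhibitor cystatin F, rose from 6.79 ± 1.18 to 12 ± 3.18 CPM (mean ± SD, n = 4 and 7, edgeR log2 fold change 0.82, adjusted p = 0.00836). Apoe, the lipid carrier and the most abundant of the list, was 4225, 2639, 2445, and 2888 CPM in CON and 1948 to 3927 CPM (median 2817) in MAL-BG and was not called (log2 fold change -0.13, adjusted p = 0.669). Csf1, a growth factor for microglia, fell from 291, 114, 150.3, and 128 CPM in CON to 51 to 67.8 CPM (median 54) in MAL-BG (log2 fold change -1.61, SE 0.229, adjusted p = 7.63e-05). The covariate left 2 higher and 1 lower DEGs in this list.

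Antigen presentation on MHC class I was higher. Of 20 genes, 12 were higher DEGs and 0 lower (median 0.63). Tapbp, tapasin, which loads peptides on class I molecules, was 326, 235, 278, and 244 CPM in CON, 237 to 344 CPM in MAL, and 414 to 780.1 CPM (median 704) in MAL-BG (log2 fold change 1.24, SE 0.182, adjusted p = 1.02e-04). The lowest MAL-BG library was above the highest CON and MAL library. Both chains of the peptide transporter rose, Tap1 (log2 fold change 0.90, adjusted p = 0.00211) and Tap2 (log2 fold change 1.27, adjusted p = 8.16e-04). B2m, the light chain of class I and the most abundant gene of the list, was 1385, 1064, 1356, and 1175 CPM in CON and 971 to 2064 CPM (median 1523) in MAL-BG and was not called (log2 fold change 0.31, adjusted p = 0.223). Of 10 class II genes 3 were higher and 1 was lower, with a median of 0.06 that turned to -0.10 with offsets for length and GC content. H2-DMa, which edits class II peptides, rose (log2 fold change 0.95, adjusted p = 4.36e-04), Cd74, the invariant chain, was not called (log2 fold change -0.16, adjusted p = 0.671), and Ciita, the class II transactivator, fell from 9.12 ± 3.01 to 2.43 ± 1.76 CPM (mean ± SD, n = 4 and 7, edgeR adjusted p = 0.00328). With the choroid plexus covariate the class I list had 5 higher and 0 lower DEGs and the class II list 0 higher and 3 lower. Tap1 (log2 fold change 0.53, adjusted p = 0.129) and H2-DMa (log2 fold change 0.55, adjusted p = 0.0582) were then not called.

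Protein processing in the endoplasmic reticulum was higher. Of 28 genes of N-glycosylation, the attachment of sugar chains to new proteins, 13 were higher DEGs and 1 was lower (median 0.57). Dpagt1, which starts the sugar chain, was 38.9, 27.9, 28.8, and 23.2 CPM in CON and 54.8 to 70.9 CPM (median 68.3) in MAL-BG (log2 fold change 1.15, SE 0.133, adjusted p = 1.57e-05). Mogs, the first glucosidase to trim it, was 73.6, 38.4, 43.4, and 36.8 CPM in CON and 88.1 to 171 CPM (median 136) in MAL-BG (log2 fold change 1.40, SE 0.221, adjusted p = 1.64e-04). Neither gene overlapped between the groups. Rpn2 and Rpn1, subunits of the oligosaccharyltransferase, rose with log2 fold changes of 0.87 (adjusted p = 7.72e-05) and 1.0 (adjusted p = 1.77e-04). The list had 9 higher and 0 lower DEGs with the choroid plexus covariate.

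Of 22 chaperone and unfolded protein response genes, 7 were higher and 2 lower (median 0.44). The promoters of the list were searched for the element through which the unfolded protein response acts, and the matches are shown because they fall both on genes that rose and on genes that were not called. The endoplasmic reticulum stress element, searched as CCAAT, any 9 bases, and CCACG on both strands in the RefSeq windows of GRCm38.p6 from 250 bases before to 50 bases after each start, was in 7 of the 19 genes of the list that had a window (36.8%), against 0.154% of the tested genes with a window and 0.119% of all 32851 windows. Of the matches, 4 are printed in the direction of transcription, with the element in capitals and its reverse complement in capitals where it lies on the other strand.
Hsp90b1 (chr10:86705628-86705666, minus strand): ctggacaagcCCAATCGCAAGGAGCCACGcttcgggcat
Pdia6 (chr12:17266481-17266519, plus strand): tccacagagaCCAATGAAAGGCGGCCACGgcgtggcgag
Creld2 (chr15:88819510-88819548, plus strand): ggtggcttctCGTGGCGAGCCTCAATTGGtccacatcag
Hspa5 (chr2:34772015-34772053, plus strand): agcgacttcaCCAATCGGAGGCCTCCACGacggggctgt
Of the 7 genes with a match, 4 were higher DEGs. Hsp90b1, the chaperone GRP94, was 1116, 967, 973, and 778 CPM in CON and 1023 to 2319.8 CPM (median 2100.0) in MAL-BG (log2 fold change 0.92, SE 0.202, adjusted p = 0.00169), with overlap in 1 MAL-BG library. Pdia6, a disulfide isomerase, rose (log2 fold change 0.99, adjusted p = 2.81e-04), Creld2 rose (log2 fold change 0.91, adjusted p = 7.96e-04), and Canx, the lectin chaperone calnexin, rose as well (log2 fold change 0.62, adjusted p = 2.77e-04). Hspa5, the chaperone BiP, was 1327, 814, 859, and 749.6 CPM in CON and 609.7 to 1028 CPM (median 782) in MAL-BG and was not called (log2 fold change -0.25, adjusted p = 0.269). Calr (log2 fold change 0.42, adjusted p = 0.0162) and Dnajc3 (log2 fold change 0.02, adjusted p = 0.899) were not called either. Dnajb11, a BiP cochaperone, had the smallest p of the list and rose (log2 fold change 0.60, adjusted p = 1.67e-04), but was under the fold threshold without CON replicate 4 (0.52). Emc3 and Tmco1, an insertase subunit and a calcium channel of the endoplasmic reticulum membrane, were the 2 rises among the 10 DEGs of smallest p with at least 100 CPM. Emc3 was 78.7, 82.4, 82.8, and 78.6 CPM in CON and 125 to 163 CPM (median 145) in MAL-BG (log2 fold change 0.82, SE 0.0896, adjusted p = 1.03e-05), and Tmco1 rose (log2 fold change 0.84, adjusted p = 1.03e-05).

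Ribosomal protein and proteasome genes gave few calls past the fold threshold. Of 78 cytosolic ribosomal protein genes, 0 were higher and 1 lower, and the interval was within 0.58 for 52, but the offsets for length and GC content gave 0 higher and 18 lower. Rplp1, a protein of the ribosomal stalk, was 986, 837, 938, and 883 CPM in CON and 651 to 1406 CPM (median 909) in MAL-BG (log2 fold change 0.14, adjusted p = 0.600), and Rpl35 had the smallest p (log2 fold change -0.44, adjusted p = 0.00496), under the threshold for DEGs. Of 31 proteasome genes, 4 were higher, near the background of 11.4%, and 0 lower, with 20 bounded, while by adjusted p alone 18 were higher and 0 lower (19.9% of all genes were higher by it). Psmd7, of the proteasome lid, had a log2 fold change of 0.61 (adjusted p = 3.04e-04), and was under the fold threshold without CON replicate 1 or MAL-BG replicate 3 (at lowest 0.55). Psmd2 had a log2 fold change of 0.32 (adjusted p = 0.0175) and was not a DEG. Of 43 splicing genes, 3 were higher and 1 lower, both shares under the background of 11.4% and 21.7%, and U2af1, which reads the 3′ splice site, had a log2 fold change of 0.56 (adjusted p = 0.00156). Of 13 cytosolic heat shock genes, 2 were higher, near the background of 11.4%, and 1 lower, under that of 21.7%. Hsph1, a large HSP110 chaperone, fell from 142, 75, 76.4, and 76.2 CPM in CON to 28.2 to 67.5 CPM (median 33.2) in MAL-BG (log2 fold change -1.29, SE 0.237, adjusted p = 4.87e-04).

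**Figure D4:**
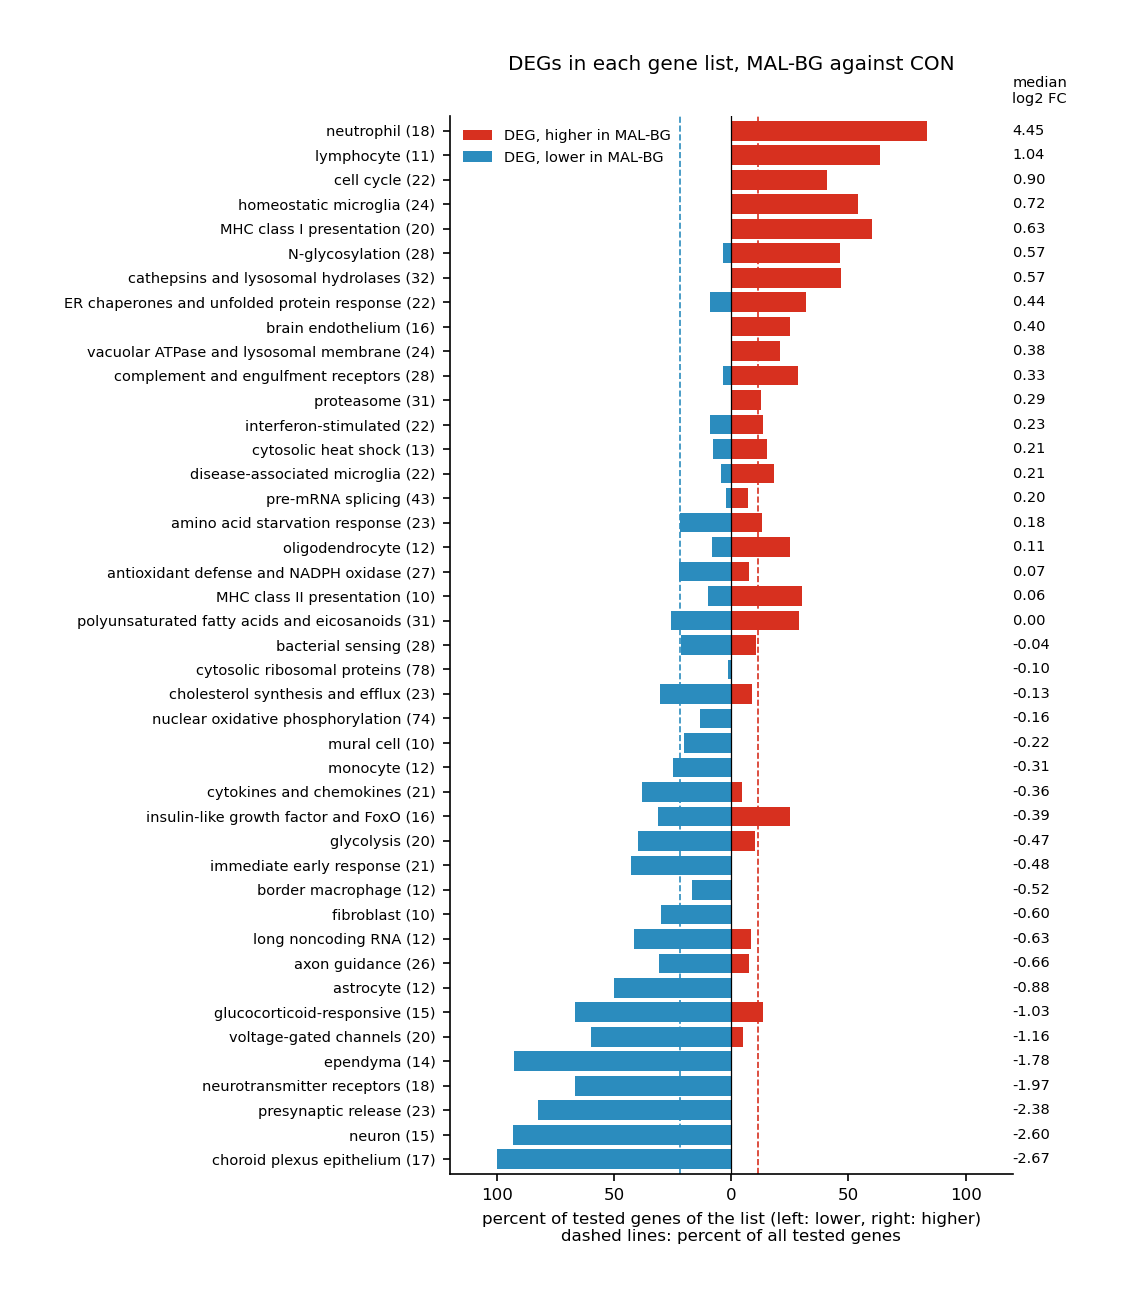
Share of the tested genes of each list that were DEGs higher in MAL-BG (red, to the right) or lower (blue, to the left), with the number of tested genes in parentheses and the median log2 fold change at the right. Dashed lines mark the shares among all tested genes, 11.4% and 21.7%. Neutrophil, lymphocyte, and cell cycle lists lay at the top, followed by the homeostatic microglia, class I, lysosomal hydrolase, and N-glycosylation lists. Choroid plexus, neuronal, and synaptic lists lay at the bottom.

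Cytokine and chemokine genes that were called were mostly lower. Of 21 cytokine and chemokine genes, 8 were lower DEGs and 1 was higher (median -0.36), and 7 lay below CON in every MAL-BG library (11.1% of all genes did). Il1a, interleukin 1 alpha (chr2:129299609-129310186), was 625, 901, 814, and 787 CPM in CON, 229.8 to 794 CPM in MAL, and 45.8 to 162 CPM (median 113) in MAL-BG (log2 fold change -2.80, SE 0.309, adjusted p = 1.15e-05). Tnf, tumor necrosis factor (chr17:35199367-35202007), was 287, 222, 231, and 241 CPM in CON, 99.1 to 258 CPM in MAL, and 26.7 to 100 CPM (median 55.7) in MAL-BG (log2 fold change -2.14, SE 0.299, adjusted p = 7.19e-05). Neither gene overlapped between CON and MAL-BG. Il1b, interleukin 1 beta, fell from 217, 228, 225, and 302 CPM in CON to 69.8 to 197 CPM (median 122) in MAL-BG (log2 fold change -0.91, SE 0.283, adjusted p = 0.0156), and was not called without CON replicate 4 (adjusted p = 0.0546). Cxcl1, which draws neutrophils, was 18.9, 24.8, 10.9, and 21.8 CPM in CON and 0.551 to 2.15 CPM (median 1.24) in MAL-BG (log2 fold change -3.93, SE 0.397, adjusted p = 6.06e-06), and its relative Cxcl2 fell (log2 fold change -2.44, adjusted p = 3.41e-04). The macrophage inflammatory proteins went the other way or were not called, with Ccl3 at 293, 229, 228, and 215 CPM in CON and 275 to 587 CPM (median 454) in MAL-BG (log2 fold change 0.80, SE 0.279, adjusted p = 0.0285), a call lost without CON replicate 2, 3, or 4 (adjusted p up to 0.0768), and Ccl4 with a log2 fold change of 0.53 (adjusted p = 0.250).

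The promoters of these genes are known for sites of NF-kB. The letters GGGA, any base, and TTTCC, on either strand of the same windows, were in 4 of the 15 cytokine genes with a window (26.7%) against 0.553% of the tested genes with a window and 0.411% of all windows. The 4 were Cxcl1, Cxcl2, Csf1, and Il6, and Il6 was not called (log2 fold change -0.05, adjusted p = 0.898). Of these, 3 are shown with Nfkbia, an inhibitor of NF-kB, with the match in capitals.
Cxcl1 (chr5:90891164-90891193, plus strand): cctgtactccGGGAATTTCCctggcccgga
Cxcl2 (chr5:90903792-90903821, plus strand): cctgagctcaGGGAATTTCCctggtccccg
Csf1 (chr3:107760604-107760633, minus strand): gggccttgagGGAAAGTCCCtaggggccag
Nfkbia (chr12:55492657-55492686, minus strand): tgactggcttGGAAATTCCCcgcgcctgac
In Csf1 and Nfkbia the match is on the opposite strand. Of 7 motifs searched, the other 4 (TGACGTCA, the CArG box, the heat shock element, and CCAATC, which overlaps some of the matches above) are not used here. A match is a description of the letters only, and B2m and Tlr3, which were not lower, had 1 as well. Inhibitors of NF-kB were not counted as a list. Nfkbia, IkB alpha, was 2374, 1400.0, 1492, and 1569 CPM in CON, 1097 to 2650.1 CPM in MAL, and 261 to 1158 CPM (median 602) in MAL-BG (log2 fold change -1.40, SE 0.313, adjusted p = 0.00200). Tnfaip3, the deubiquitinase A20 that shuts off the pathway, was 1606, 849.5, 913, and 910.0 CPM in CON and 110.0 to 292 CPM (median 172) in MAL-BG (log2 fold change -2.49, SE 0.248, adjusted p = 5.85e-06). Nfkbiz, IkB zeta, was 1307, 957, 864, and 959 CPM in CON and 93.3 to 254 CPM (median 159.7) in MAL-BG (log2 fold change -2.62, SE 0.224, adjusted p = 2.47e-06). All 3 were lower in every MAL-BG library than in any CON library. Kdm6b, a histone demethylase induced by inflammatory signals (chr11:69398508-69420367), had the smallest p of the DEGs with a mean of at least 100 CPM, and was 356, 358, 302, and 277 CPM in CON, 135 to 301 CPM in MAL, and 42.7 to 63.4 CPM (median 48.4) in MAL-BG (log2 fold change -2.67, SE 0.180, adjusted p = 1.83e-07).

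**Figure D5:**
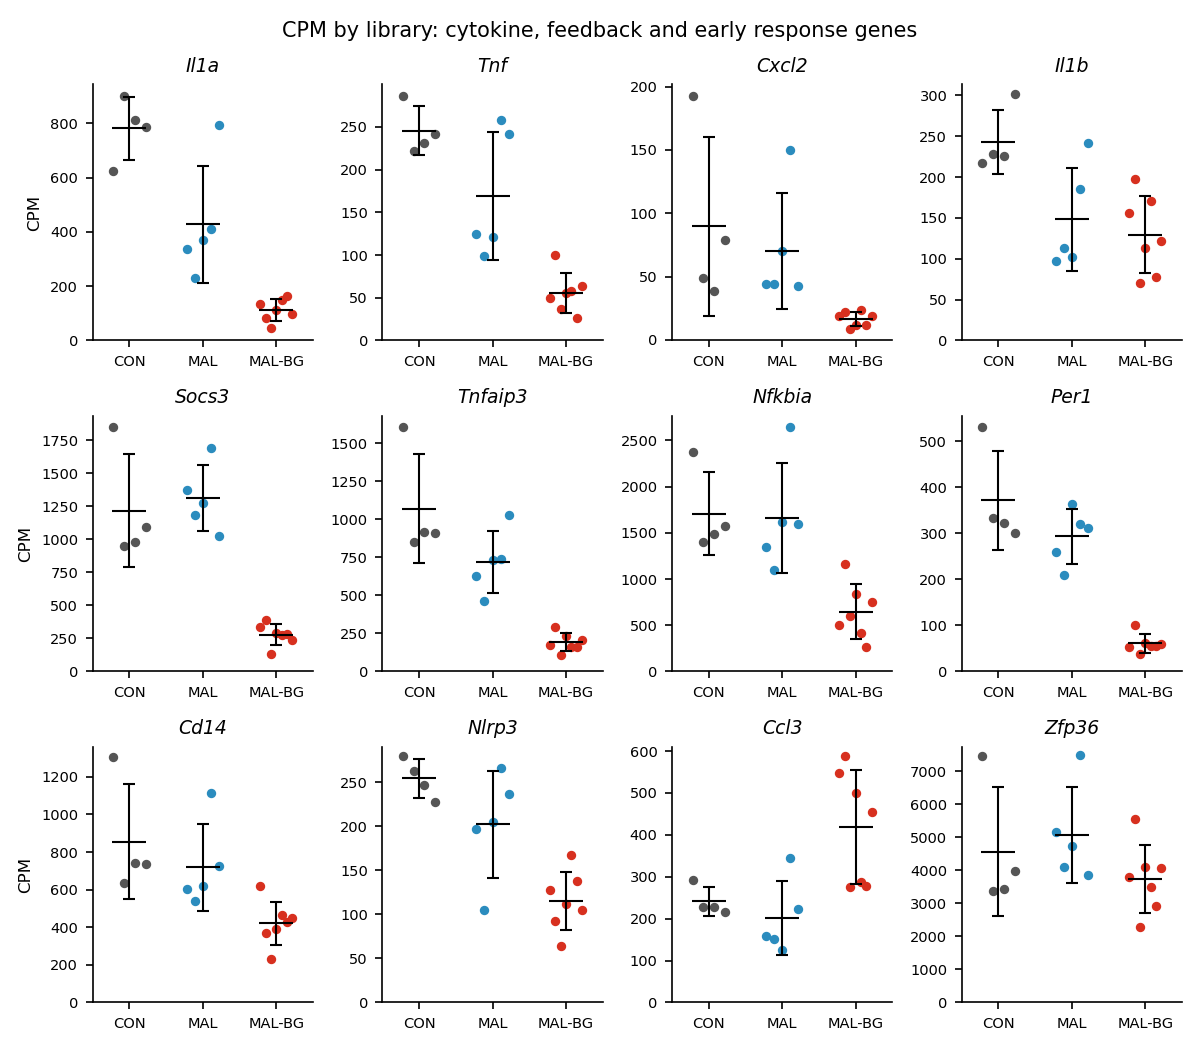
CPM (vertical axes) of 12 cytokine, NF-kB feedback, sensor, and early response genes in each CON, MAL, and MAL-BG library. Points are libraries, horizontal bars are means, and whiskers are 1 SD. Il1a, Tnf, Cxcl2, Socs3, Tnfaip3, Nfkbia, and Per1 were below every CON library in all 7 MAL-BG libraries, whereas Ccl3 and Zfp36 overlapped.

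Sensors of bacteria moved in both directions. Of 28 genes, 3 were higher and 6 lower (median -0.04, or 0.20 with the offsets and mean log2 CPM scaling), both shares near the background. Cd14, the coreceptor for lipopolysaccharide, was 1308, 637, 742, and 736 CPM in CON and 233 to 617 CPM (median 426) in MAL-BG (log2 fold change -1.03, SE 0.245, adjusted p = 0.00312). Nlrp3, the inflammasome sensor, was 279.6, 262, 247, and 228 CPM in CON and 64.2 to 167 CPM (median 111) in MAL-BG (log2 fold change -1.14, SE 0.226, adjusted p = 8.39e-04), and Lbp, the lipopolysaccharide-binding protein, fell (log2 fold change -2.29, adjusted p = 0.00117). Tlr3, the receptor for double-stranded RNA, had the smallest p of the list and rose, from 62.1, 46.5, 52.1, and 44.1 CPM in CON to 82.1 to 128 CPM (median 107) in MAL-BG (log2 fold change 1.08, SE 0.138, adjusted p = 3.23e-05). Tlr4, the lipopolysaccharide receptor, was 56.7, 36.9, 39.5, and 31.1 CPM in CON and 35.4 to 89.2 CPM (median 45.5) in MAL-BG and was not called (log2 fold change 0.34, adjusted p = 0.222). Under the choroid plexus covariate the sensors had 2 higher and 9 lower DEGs, and Lbp was not called (log2 fold change -0.29, adjusted p = 0.655). Of 22 interferon-stimulated genes 3 were higher, near the background of 11.4%, and 2 lower, under that of 21.7%. Bst2, the virus tether tetherin, rose (log2 fold change 0.95, adjusted p = 0.00877), and Stat2, a factor of the interferon pathway, fell from 84.2, 69.9, 83.5, and 73.3 CPM in CON to 32.5 to 53.9 CPM (median 44.4) in MAL-BG (log2 fold change -0.81, adjusted p = 1.35e-04).

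Early response and glucocorticoid-responsive genes were lower. Of 21 immediate early genes, 9 were lower DEGs and 0 higher (median -0.48). Socs3, the inhibitor of cytokine receptors, was 1853, 954, 979, and 1091 CPM in CON, 1029 to 1694 CPM in MAL, and 129 to 387 CPM (median 285) in MAL-BG (log2 fold change -2.13, SE 0.239, adjusted p = 1.20e-05). The transcription factor genes Egr1 (log2 fold change -1.23, adjusted p = 0.00287), Fosb (log2 fold change -1.51, adjusted p = 6.87e-04), Atf3 (log2 fold change -1.32, adjusted p = 0.00159), and Nr4a2 (log2 fold change -2.47, adjusted p = 4.63e-05), which are induced within minutes of a stimulus, fell. Zfp36, the messenger RNA decay factor and the most abundant of the list, was 7465, 3374, 3428, and 3976 CPM in CON and 2269.6 to 5539 CPM (median 3783) in MAL-BG and was not called (log2 fold change -0.29, adjusted p = 0.383). Among CON libraries replicate 1 had the largest sum of the list, 58422 CPM against 29401 to 32639.7 in the other CON libraries, and MAL-BG had 17364 to 47004. Without CON replicate 1 the list had 3 higher and 8 lower DEGs, and with the choroid plexus covariate 0 higher and 18 lower.

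Of 15 glucocorticoid-responsive genes, 10 were lower DEGs and 2 higher (median -1.03). Cdkn1a, the cell cycle inhibitor p21, was 215, 136, 157, and 177 CPM in CON and 34.2 to 53 CPM (median 41.2) in MAL-BG (log2 fold change -2.0, SE 0.135, adjusted p = 1.83e-07). Per1, a clock gene with glucocorticoid response elements, was 531, 332, 323, and 301 CPM in CON, 209.8 to 364 CPM in MAL, and 37.1 to 101 CPM (median 55.8) in MAL-BG (log2 fold change -2.62, SE 0.220, adjusted p = 2.25e-06). Mt2, a metallothionein, fell (log2 fold change -2.01, adjusted p = 2.61e-05), and reads of an annotated antisense transcript over most of its exons could be counted to it if strand was not used. The 2 that rose were Nr3c1, the glucocorticoid receptor itself (log2 fold change 0.65, adjusted p = 1.16e-04), and the kinase gene Sgk1 (log2 fold change 0.88, adjusted p = 0.00299). With the covariate the list had 0 higher and 7 lower DEGs. Other genes of smallest p were the secreted protease Adamts1, at 446, 539.5, 345, and 495 CPM in CON and 89.9 to 156 CPM (median 111) in MAL-BG (log2 fold change -1.97, SE 0.159, adjusted p = 1.51e-06), the actin-binding Marcksl1 (log2 fold change -1.81, adjusted p = 5.85e-06), the kinase Slk (log2 fold change -0.96, adjusted p = 5.85e-06), and polycystin 1, Pkd1 (log2 fold change -1.05, adjusted p = 6.64e-06).

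Lipid genes were called in both directions. Of 31 genes of polyunsaturated fatty acids and eicosanoids, 9 were higher and 8 lower (median 0.00). The higher share was above the background of 11.4%, and the lower share was near that of 21.7%. Fads2, the delta-6 desaturase that limits synthesis of long polyunsaturated fatty acids (chr19:10062765-10101503), was 15, 30.5, 28.8, and 28.8 CPM in CON, 10.2 to 41.5 CPM in MAL, and 1.69 to 5.71 CPM (median 2.80) in MAL-BG (log2 fold change -2.99, SE 0.376, adjusted p = 3.08e-05). The delta-9 desaturase gene Scd1 fell (log2 fold change -1.45, adjusted p = 0.00632), and the inducible cyclooxygenase gene Ptgs2 fell as well (log2 fold change -1.19, adjusted p = 0.00303). Ptgs1, the constitutive cyclooxygenase of microglia, was 620.0, 386, 462, and 355 CPM in CON and 640.1 to 1030.3 CPM (median 868) in MAL-BG (log2 fold change 0.89, SE 0.185, adjusted p = 0.00118). Other eicosanoid genes that rose were the leukotriene synthase gene Ltc4s (log2 fold change 1.18, adjusted p = 0.00245), the thromboxane synthase gene Tbxas1 (log2 fold change 1.09, adjusted p = 5.30e-04), and Alox5ap, whose product activates 5-lipoxygenase (log2 fold change 0.88, adjusted p = 4.87e-04). With the covariate 1 higher and 2 lower DEGs were left in this list, and Ptgs1 (log2 fold change 0.32, adjusted p = 0.191) and Scd1 (log2 fold change -0.16, adjusted p = 0.798) were not called.

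Of 23 genes of cholesterol synthesis and efflux, 7 were lower and 2 higher (median -0.13, or 0.14 with the offsets and mean log2 CPM scaling). Insig1, which retains the sterol sensor in the endoplasmic reticulum, was 29.2, 61.3, 40.8, and 42.4 CPM in CON and 16.8 to 23.6 CPM (median 19) in MAL-BG (log2 fold change -1.16, SE 0.163, adjusted p = 7.09e-05), and the synthesis gene Sqle fell (log2 fold change -1.24, adjusted p = 0.00295). The 2 that rose were Abcg1, which exports cholesterol (log2 fold change 1.10, adjusted p = 7.51e-05), and Soat1, which esterifies it for storage (log2 fold change 0.79, adjusted p = 8.34e-05). The covariate turned the calls of the list to 3 higher and 1 lower, and Sqle was not called (log2 fold change -0.05, adjusted p = 0.914).

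Insulin-like growth factor and FoxO genes were called in both directions. Of 16 tested, 4 were higher and 5 lower (median -0.39). Irs2, the adaptor of the insulin receptor, was 18.4, 50.7, 26.5, and 34.4 CPM in CON, 13.1 to 28.2 CPM in MAL, and 0.965 to 8.85 CPM (median 2.76) in MAL-BG (log2 fold change -3.02, SE 0.459, adjusted p = 1.30e-04). Igf1r, the receptor for IGF-1, rose (log2 fold change 0.81, adjusted p = 0.0127), and of the FoxO factors Foxo1 rose (log2 fold change 0.79, adjusted p = 4.32e-04) and Foxo3 fell (log2 fold change -1.57, adjusted p = 7.81e-04). Igfbp2, which choroid plexus epithelium secretes, was 191, 799.8, 499, and 524 CPM in CON and 38.8 to 369 CPM (median 108) in MAL-BG (log2 fold change -1.96, SE 0.566, adjusted p = 0.00999), but not with the choroid plexus covariate (log2 fold change 0.39, adjusted p = 0.189). Of 23 genes of the amino acid starvation response, 3 were higher and 5 lower, both shares near the background of 11.4% and 21.7%. Slc7a5, the light chain of the large neutral amino acid transporter, was 94.2, 80.6, 101, and 112 CPM in CON and 161 to 218 CPM (median 174) in MAL-BG (log2 fold change 0.92, SE 0.141, adjusted p = 1.32e-04), and its heavy chain Slc3a2 had a log2 fold change of 0.52 (adjusted p = 0.00558), under the fold threshold. Vldlr, a lipoprotein receptor that the response can induce, fell (log2 fold change -2.66, adjusted p = 3.01e-04).

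Glycolytic genes that were called were mostly lower. Of 20 glycolytic genes, 8 were lower and 2 higher (median -0.47). Pfkp, a phosphofructokinase, fell (log2 fold change -1.59, adjusted p = 0.00257) and so did Gapdh (log2 fold change -0.75, adjusted p = 0.0100), while Hk2, hexokinase 2, rose (log2 fold change 0.94, adjusted p = 0.00204). Aldoc, the aldolase of astrocytes, had the smallest p of the list (log2 fold change -2.30, adjusted p = 2.59e-04), and the most abundant, Pkm, was not called (log2 fold change -0.25, adjusted p = 0.216). With the covariate 0 higher and 1 lower DEG was left. Of 74 nuclear genes of oxidative phosphorylation, 10 were lower and 0 higher, under the background, and 31 were bounded, whereas the offsets gave 0 higher and 27 lower. Atp5g1, a subunit of the ATP synthase ring, was 36.5, 125, 75.6, and 77.4 CPM in CON and 17.5 to 32.3 CPM (median 23.5) in MAL-BG (log2 fold change -1.73, SE 0.311, adjusted p = 4.29e-04), and Atp5a1, the abundant alpha subunit, was not called (log2 fold change -0.21, adjusted p = 0.269). With the choroid plexus covariate the oxidative phosphorylation list had 4 higher and 0 lower DEGs, and Atp5g1 was not called (log2 fold change -0.35, adjusted p = 0.342). Of 27 antioxidant and NADPH oxidase genes, 6 were lower and 2 higher (median 0.07, or -0.12 with the offsets). The lower share was near the background of 21.7%, and the higher share was under that of 11.4%. Nqo1, a quinone reductase of the NRF2 response, fell (log2 fold change -2.30, adjusted p = 8.63e-04), Cyba, the membrane subunit of the phagocyte oxidase, was 305, 189, 252, and 207 CPM in CON and 338 to 667 CPM (median 538) in MAL-BG (log2 fold change 1.15, SE 0.195, adjusted p = 2.73e-04), and Rac1, its activator, had a log2 fold change of 0.50 (adjusted p = 0.00339). The covariate left 2 higher and 1 lower in the antioxidant list, and Nqo1 was not called (log2 fold change -0.56, adjusted p = 0.341).

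Cell cycle genes were higher at low levels. Of 22 tested, 9 were higher DEGs and 0 lower (median 0.90). Mcm3, of the replicative helicase, was 45.2, 38.3, 43.4, and 35.6 CPM in CON and 52.1 to 78.6 CPM (median 64.8) in MAL-BG (log2 fold change 0.66, SE 0.155, adjusted p = 0.00272), and Ccnb1, the mitotic cyclin, was 0.384, 0.557, 0.709, and 0.454 CPM in CON and 0.827 to 6.51 CPM (median 1.56) in MAL-BG (log2 fold change 1.95, SE 0.582, adjusted p = 0.0122). A gene as scarce in CON as Ccnb1 could pass the count filter only through libraries of other groups. Such a gene can hardly be called lower, so the 0 lower is partly set by the filter. The sum of the list was 697 CPM in MAL-BG replicate 5, 303 to 379 in the other 6, and 252 to 259.8 in CON, and without replicate 5 there were 5 higher and 0 lower DEGs. With the choroid plexus covariate there were 0 higher and 0 lower. Pcna, the most abundant of the list, was not called (log2 fold change 0.04, adjusted p = 0.838).

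Neutrophil genes were higher. Of 18 tested, 15 were higher DEGs and 0 lower (median 4.45), and 9 lay above CON in every MAL-BG library. The summed CPM overlapped between the groups. CON replicate 1 had 1255, above MAL-BG replicates 1, 3, 4, and 6 (1149.9, 631, 984, and 930.1). S100a9, a subunit of the antimicrobial protein calprotectin, was 45.1, 67.3, 24.4, and 48.7 CPM in CON, 19.2 to 136 CPM in MAL, and 72 to 3831 CPM (median 221) in MAL-BG (log2 fold change 4.21, SE 1.07, adjusted p = 0.00469). MAL-BG replicate 5 alone had 3831 CPM. Its partner S100a8 rose (log2 fold change 4.39, adjusted p = 0.00431), as did the siderophore-binding Lcn2 (log2 fold change 4.94, adjusted p = 0.00581), and Wfdc21 and Retnlg rose with log2 fold changes of 5.20 and 4.55 (adjusted p = 0.00510 and 0.00145). Genes as scarce in CON as Wfdc21 (0.384 to 0.835 CPM) could pass the count filter only through other groups, and can hardly be called lower. The granule protease Mmp9 was 9.37, 2.04, 2.84, and 3.03 CPM in CON and 13.5 to 242 CPM (median 36.5) in MAL-BG (log2 fold change 3.97, adjusted p = 0.00125), and Mmp8 rose (log2 fold change 3.74, adjusted p = 0.00473). Granule genes of immature neutrophils rested most on replicate 5, with Ltf at 1926 CPM there and Camp at 1108, against medians of 78.6 and 40.2 CPM. Without replicate 5 the list had 12 higher and 0 lower DEGs with a median of 2.81, and with the choroid plexus covariate 0 higher and 1 lower. Lrg1, a glycoprotein of neutrophil granules and inflamed endothelium, was 0.768, 0.371, 1.02, and 0.303 CPM in CON and 2.38 to 51.9 CPM (median 10.2) in MAL-BG (log2 fold change 4.64, SE 0.815, adjusted p = 3.64e-04). Among DEGs with at least 10 CPM and no overlap, B130006D01Rik, a long noncoding RNA, was the last of the 10 largest rises (log2 fold change 1.85, adjusted p = 0.00507).

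Lymphocyte genes were higher. Of 11 tested, 7 were higher and 0 lower (median 1.04), and the sum was 52.7 to 81.8 CPM in CON, 58.1 to 82 in MAL, and 117 to 243 in MAL-BG, with no overlap. Gzma, the granzyme of natural killer and cytotoxic T cells (chr13:113093824-113100981), was 25, 19.9, 27.7, and 19.7 CPM in CON, 15.1 to 21.4 CPM in MAL, and 46.4 to 129 CPM (median 102) in MAL-BG (log2 fold change 2.04, SE 0.280, adjusted p = 6.02e-05). The cytotoxic granule gene Nkg7 rose (log2 fold change 1.82, adjusted p = 1.15e-04) and so did the B cell receptor gene Cd79b (log2 fold change 1.51, adjusted p = 1.23e-04). Cd3d, Cd3e, and Cd3g, which define T cells, were under the filter, with 8, 7, and 9 counts over the 4 CON libraries and 59, 24, and 47 over the 7 MAL-BG libraries. These counts are not scaled. The MAL-BG libraries were more numerous and deeper, with totals of 14191791 to 18705202 counts against 10312703 to 13461574 in CON. The sums therefore cannot be compared as levels, and a change was not tested. Gzma remained called with the choroid plexus covariate (log2 fold change 2.41, adjusted p = 0.000409).

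Monocyte and border macrophage genes gave few calls. Of 12 monocyte genes, 0 were higher and 3 lower, and of 12 border macrophage genes 0 and 2. At the background of 11.4% higher and 21.7% lower, lists this short can hold few calls, so these counts do not set either list apart. The largest log2 fold change among the monocyte genes was 2.14, which was not called. Ace, angiotensin-converting enzyme, which marks nonclassical monocytes and is also made by choroid plexus, was 171, 476, 394, and 357 CPM in CON and 51.4 to 115 CPM (median 69.8) in MAL-BG (log2 fold change -2.11, SE 0.298, adjusted p = 7.55e-05). Fn1 (log2 fold change -0.22, adjusted p = 0.637) and Stab1 (log2 fold change -0.15, adjusted p = 0.665) were the most abundant of each list and were not called, and the macrophage lectin gene Siglec1 fell (log2 fold change -1.29, adjusted p = 0.0107), a call lost without CON replicate 1 (adjusted p = 0.0609). Red cell genes gave little, since Hba-a1, Hba-a2, Hbb-bs, and Hbb-bt were listed at 0 in every library, and Alas2, the heme synthesis enzyme of red cell precursors, was 1.77, 0.835, 0.631, and 1.51 CPM in CON and 1.53 to 4.62 CPM (median 2.66) in MAL-BG (log2 fold change 1.32, SE 0.473, adjusted p = 0.0315), a call lost without CON replicate 2 or 3 or MAL-BG replicate 3 (adjusted p up to 0.104).

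Vessel genes differed by cell type. Of 16 endothelial genes 4 were higher, a share above the background of 11.4%, and 0 lower (median 0.40). Cldn5, the main claudin of the blood-brain barrier, was 115, 244, 246, and 408 CPM in CON and 286 to 1491 CPM (median 637) in MAL-BG (log2 fold change 1.58, SE 0.411, adjusted p = 0.00539), and the ranges overlapped. Of 10 mural cell genes 0 were higher and 2 lower, near the background of 21.7% (median -0.22, or 0.27 with the offsets and mean log2 CPM scaling). Acta2, the smooth muscle actin, was not called (log2 fold change 0.90, adjusted p = 0.0995), and Rgs5 of pericytes fell (log2 fold change -1.42, adjusted p = 0.00915) but was not called without CON replicate 4 (adjusted p = 0.0709). Of 10 fibroblast genes 0 were higher and 3 lower, and Igf2, which meninges and choroid plexus express, was 383, 1070.3, 745, and 654 CPM in CON and 67.2 to 337 CPM (median 97.9) in MAL-BG (log2 fold change -2.41, SE 0.436, adjusted p = 4.45e-04), although an annotated readthrough transcript shares most of its exons. Under the choroid plexus covariate there were 12 higher and 0 lower endothelial and 2 higher and 0 lower mural DEGs.

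Genes of the ventricular lining fell together. All 17 choroid plexus genes were lower DEGs (median -2.67). Ttr, transthyretin, the thyroid hormone carrier of the cerebrospinal fluid, was 9928, 38603, 23709.5, and 20185 CPM in CON, 4623 to 30260.3 CPM in MAL, and 1405 to 12402 CPM (median 3909) in MAL-BG (log2 fold change -2.28, SE 0.546, adjusted p = 0.00313). CON replicate 1 lay under MAL-BG replicate 3, and the other libraries did not overlap. F5, coagulation factor V, had the smallest p, with 96.7, 326, 192, and 162 CPM in CON and 4.90 to 42.7 CPM (median 17) in MAL-BG (log2 fold change -3.38, SE 0.485, adjusted p = 8.78e-05), Kl, the hormone coreceptor klotho, fell (log2 fold change -2.83, adjusted p = 5.59e-04), and Enpp2, autotaxin, fell as well (log2 fold change -2.56, adjusted p = 0.00177). Htr2c, the serotonin receptor abundant in choroid plexus, fell (log2 fold change -2.67, adjusted p = 0.00127). Of 14 ependymal genes 13 were lower and 0 higher (median -1.78). Foxj1, the master factor of motile cilia, was 57, 113, 64.3, and 93 CPM in CON and 8.96 to 31.7 CPM (median 10.8) in MAL-BG (log2 fold change -2.60, SE 0.398, adjusted p = 1.38e-04), and Dnah11, a ciliary dynein, fell (log2 fold change -3.06, adjusted p = 3.23e-05).

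Neuronal and synaptic genes fell at low levels. Of 15 neuronal markers 14 were lower and 0 higher (median -2.60). Camk2a, the calcium/calmodulin kinase of excitatory synapses, was 61.5, 144, 298, and 143 CPM in CON, 53.7 to 247 CPM in MAL, and 6.13 to 12 CPM (median 8.72) in MAL-BG (log2 fold change -4.28, SE 0.392, adjusted p = 3.54e-06). The vesicular glutamate transporter gene Slc17a7 fell (log2 fold change -4.93, adjusted p = 6.29e-06) and so did Snap25 of the release machinery (log2 fold change -3.65, adjusted p = 2.49e-05). Of 23 presynaptic genes 19 were lower and 0 higher (median -2.38), of 18 transmitter receptors 12 and 0 (median -1.97), of 20 voltage-gated and potassium channels 12 and 1 (median -1.16), and of 26 axon guidance genes 8 and 2 (median -0.66). The last 2 medians became -0.15 and -0.01 under mean log2 CPM scaling with the offsets. The potassium channel gene Kcna3 was 6.37, 2.97, 5.20, and 3.78 CPM in CON and 0.0766 to 0.759 CPM (median 0.207) in MAL-BG (log2 fold change -3.93, SE 0.474, adjusted p = 2.19e-05).

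Some members of these lists that many cells express were not called. Vamp2, a vesicle protein of many cells and the most abundant presynaptic gene, had a log2 fold change of -0.50 (adjusted p = 0.00187), under the fold threshold. Kcnk6, a potassium leak channel and the most abundant of the channels, had a log2 fold change of 0.54 (adjusted p = 0.0281), also under it. Plxnb2, a semaphorin receptor, was bounded (log2 fold change 0.11, adjusted p = 0.519), while Plxna1 fell (log2 fold change -1.03, adjusted p = 6.15e-04). Of the GABA-B receptor genes Gabbr1 fell (log2 fold change -0.92, adjusted p = 0.00113) and so did Gabbr2 (log2 fold change -3.34, adjusted p = 1.74e-04).

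The 10 largest falls among DEGs with at least 10 CPM and no overlap included several genes known from neurons. Ddn, the postsynaptic protein dendrin, was 24.7, 85.2, 153, and 71.4 CPM in CON, 30.2 to 131 CPM in MAL, and 0.773 to 3.74 CPM (median 1.19) in MAL-BG (log2 fold change -5.55, SE 0.530, adjusted p = 4.61e-06). Hpcal4, a neuronal calcium sensor, was 17.1, 51.4, 103, and 41.3 CPM in CON and 0.238 to 1.99 CPM (median 1.30) in MAL-BG (log2 fold change -5.38, SE 0.504, adjusted p = 4.12e-06). Beside Camk2a they also included Fbxl16 (-5.07), Nrsn1 (-4.68), Adcy1 (-4.57), Psd (-4.42), Nwd1 (-4.42), and the elongation factor Eef1a2 (-4.19), with adjusted p of at most 2.46e-05.

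Astrocyte genes were lower, and oligodendrocyte genes showed calls in both directions. Of 12 astrocyte genes 6 were lower and 0 higher (median -0.88). Aqp4, the water channel of astrocyte endfeet, was 12.3, 10.7, 19.1, and 35 CPM in CON and 2.87 to 5.72 CPM (median 4.6) in MAL-BG (log2 fold change -2.14, SE 0.314, adjusted p = 1e-04), and Gfap fell (log2 fold change -2.72, adjusted p = 5.90e-04). The most abundant of the list, the thyroid hormone transporter gene Slco1c1, which endothelium and choroid plexus share, fell (log2 fold change -0.89, adjusted p = 0.0354), a call lost on leaving out any of 7 libraries (adjusted p up to 0.115). Of 12 oligodendrocyte genes 3 were higher and 1 lower (median 0.11). Mag, a myelin adhesion protein, was 51.3, 27.4, 28.4, and 32.9 CPM in CON and 59.6 to 89.6 CPM (median 70.3) in MAL-BG (log2 fold change 1.06, SE 0.176, adjusted p = 2.49e-04), and Mbp, the most abundant, was not called (log2 fold change 0.03, adjusted p = 0.964). Of 12 long noncoding RNAs 5 were lower and 1 higher (median -0.63, or 0.08 with the offsets and mean log2 CPM scaling), with Neat1 of nuclear paraspeckles at 1182, 1349, 873, and 816 CPM in CON and 399.7 to 681 CPM (median 579) in MAL-BG (log2 fold change -0.95, SE 0.163, adjusted p = 3.01e-04, but 0.03 with those offsets and scaling) and Malat1 not called (log2 fold change -0.09, adjusted p = 0.807).

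Some abundant genes were held within narrow intervals. Among the 10 most abundant genes whose 95% interval lay within 0.58 of zero were Rhob, a small GTPase, with 5444, 2817, 3304, and 2927 CPM in CON and 1943 to 4840.3 CPM (median 3759.8) in MAL-BG (log2 fold change 0.03, adjusted p = 0.930), and Glul, glutamine synthetase (log2 fold change -0.26, adjusted p = 0.0867). With the choroid plexus covariate Rhob was a lower DEG (log2 fold change -0.77, adjusted p = 0.0199). The others besides Itgam, Rplp1, and Plxnb2 were the RNA helicase Ddx5 (-0.15), ferritin light chain Ftl1 (0.09), the chaperone Hsp90ab1 (0.27), Epb4.1l2 (0.05), and creatine kinase Ckb (0.12), with adjusted p of at least 0.0746.

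Of the 140 genes named here that were DEGs, 137 were still called in the same direction without CON replicate 1 and MAL-BG replicates 3 and 5, and 135 to 140 when any single library was left out. Many of these 140 were named for a small p, a large change without overlap, or after seeing values. How many still held was therefore partly set in advance and does not measure the stability of all DEGs. With the choroid plexus covariate 38 of the 68 higher and 53 of the 72 lower were still called. Those still called then included Ctsd (log2 fold change 1.06, adjusted p = 0.00521), Tapbp (log2 fold change 1.08, adjusted p = 0.006), Dpagt1 (log2 fold change 0.94, adjusted p = 0.00197), Kdm6b (log2 fold change -2.73, adjusted p = 2.63e-05), Per1 (log2 fold change -3.22, adjusted p = 3.18e-06), Socs3 (log2 fold change -2.91, adjusted p = 3.86e-06), Il1a (log2 fold change -2.96, adjusted p = 0.00148), and Tnf (log2 fold change -2.92, adjusted p = 0.000188). Those no longer called included Cx3cr1 (log2 fold change 0.83, adjusted p = 0.0594) and S100a9 (log2 fold change 2.10, adjusted p = 0.393). The other rises no longer called were H2-DMa, Bst2, Ptgs1, Mcm3, Mmp9, Mag, Alas2, Wfdc21, Lcn2, Retnlg, S100a8, Mmp8, B130006D01Rik, Tmem119, C1qb, C1qc, Cst7, Tap1, Ccl3, Hk2, Alox5ap, Tbxas1, Ltc4s, Nr3c1, Sgk1, Ccnb1, Ltf, and Camp. The falls no longer called were Atp5g1, Aldoc, Igfbp2, Plxna1, Rgs5, Igf2, Ttr, Slco1c1, Lbp, Gapdh, Pfkp, Nqo1, Ptgs2, Scd1, Sqle, Kl, Enpp2, Htr2c, and Gfap. Ttr and the other genes of the choroid plexus list make up the covariate, so this fit cannot test their own fall. Named genes that were not DEGs but were called with the covariate were Zfp36 (log2 fold change -1.11, adjusted p = 0.0057), Rpl35 (log2 fold change -0.62, adjusted p = 0.0174), Stab1 (log2 fold change -0.84, adjusted p = 0.03), and Acta2 (log2 fold change 1.97, adjusted p = 0.0172), beside Rhob. Because the covariate itself differed between the groups, these fits compare libraries at a level of choroid plexus RNA that few libraries of both groups share.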

How the data were processed

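RNA of CD11b+ cells from mouse brain was sequenced as poly(A) libraries (7 of MAL-BG, 5 of MAL, and 4 of CON). The deposited values are read counts per gene, which the authors made by alignment to GRCm38.p6 with STAR and counting with HTSeq (version 2.5 in the submitters' processing notes); the annotation and strand option are not given in the sources used here. Columns were assigned to groups by name, since their numbers match no sample label, so batches could not be modeled. The authors' own model held a batch term beside condition, so the p-values here leave a recorded batch unadjusted. Genes above 10 counts in 4 or more of the 16 libraries were scaled by TMM and tested over all 3 groups with edgeR 4.0.16 in R 4.3.3 (quasi-likelihood, Benjamini-Hochberg). The thresholds for DEGs were 0.05 for the adjusted p and 0.58 for the size of the log2 fold change. The test was checked on simulated data. Alternatives were other scalings, DESeq2 1.42.0, filters, thinning, offsets for length and GC content (known for 96.3% of genes), and leaving out libraries. Gene lists and comparisons were chosen with earlier results of these data known. The text names, per list, the most abundant gene and that of smallest p, the 10 largest rises and falls (at least 10 CPM, no overlap), the 10 smallest p (at least 100 CPM), and the 10 steadiest abundant genes; 68 more were chosen after seeing values. Some genes that these rules name are not reported here. The mitochondrially encoded list had no row in the table. Promoters and coordinates came from RefSeq.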

Additional observations from a re-analysis of the deposited data

Results flagged for a closer look

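Of 442 groups of values (each named gene and each list sum, in CON and in MAL-BG), 34 held a library far from the others in its group (7.69%), by the ratio of its gap to the range of the group. Chance alone gives about 1 in 20. The values are CPM. CON replicate 1 was high in the sum of cytokines and chemokines (3417), the sum of immediate early response (58422), the sum of glucocorticoid-responsive (5314), the sum of border macrophage (2418), Hsph1 (142), Tnfaip3 (1606), Egr1 (4469), Atf3 (2866). CON replicate 1 was low in the sum of glycolysis (2949), the sum of proteasome (2022), the sum of astrocyte (459.7), Pkm (349), Fads2 (15), Nr4a2 (11.2), Gapdh (175), Snap25 (13.8). CON replicate 4 was low in Dnajb11 (92.9), Rpn1 (155). CON replicate 4 was high in Il1b (302). MAL-BG replicate 6 was low in the sum of nuclear oxidative phosphorylation (5183). MAL-BG replicate 6 was high in Hsph1 (67.5). MAL-BG replicate 5 was low in the sum of endoplasmic reticulum chaperones and unfolded protein response (7080.4), Dnajb11 (145), Dpagt1 (54.8), Canx (707). MAL-BG replicate 5 was high in the sum of cell cycle (697), the sum of monocyte (1396), Pkm (591), Ccnb1 (6.51). MAL-BG replicate 2 was high in Csf1 (67.8). MAL-BG replicate 3 was high in Foxj1 (31.7), Dnah11 (5.03). MAL-BG replicate 3 was low in Rhob (1943), Il6 (3.24). The cause of these gaps was not tested.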

How the results depend on the processing

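The counts of DEGs stayed within 1.5 times the main values (1657 higher and 3159 lower) with other scaling, DESeq2, other filters, fewer groups in the fit, thinning, and a prior count of 2. Without a fold change threshold 2892 were higher, with mean log2 CPM scaling and offsets for length and GC content 3428 were higher, and with the choroid plexus covariate, chosen after seeing the data, 937 were higher and 1406 lower. Leaving out 1 library at a time gave 1327 to 1985 higher and 2649 to 3420 lower. Among named DEGs, Neat1 changed sign with mean log2 CPM scaling, and Igfbp2, Ttr, and Slco1c1 with the covariate. Ttr is part of the summed covariate, so its own change in that fit is built in. The cause for Neat1, Igfbp2, and Slco1c1 was not tested. The log2 fold change changed sign as follows. Offsets for length and GC content gave B2m -0.11, Rplp1 -0.21, Pcna -0.27, Malat1 0.19, Stab1 0.31, Fn1 0.21, Rhob -0.08, Ftl1 -0.15. The same offsets with mean log2 CPM scaling gave Apoe 0.02, Ddx5 0.07, Malat1 0.47, Neat1 0.03, Stab1 0.57, Fn1 0.52. The choroid plexus covariate gave Ccl4 -0.19, Rplp1 -0.25, Atp5a1 0.21, Pkm 0.03, Igfbp2 0.39, Pcna -0.03, Plxnb2 -0.17, Fn1 0.63, Ttr 0.08, Slco1c1 0.41, Rhob -0.77, Ftl1 -0.33, Epb4.1l2 -0.31, Ckb -0.15, Csf1r -0.17, Tlr4 -0.13. Without CON replicate 1 and MAL-BG replicates 3 and 5, also chosen after seeing the data, the values were Apoe 0.08, Cd74 0.15, Zfp36 0.16, Pcna -0.10, Malat1 0.01, Stab1 0.43, Mbp -0.63, Dnajc3 -0.04, Hspa5 0.03. With 1 library left out at a time, the ranges that crossed zero were Apoe -0.23 to 0.05, Dnajc3 -0.06 to 0.11, Epb4.1l2 -0.02 to 0.12, Fn1 -0.51 to 0.30, Il6 -0.14 to 0.06, Malat1 -0.20 to 0.04, Mbp -0.26 to 0.49, Pcna -0.07 to 0.16, Rhob -0.08 to 0.28, Stab1 -0.30 to 0.32, Zfp36 -0.42 to 0.04. Of 1947 values of named genes with 1 library left out, 1890 kept their direction and side of the threshold, and of 2299 under the other alternatives 2161 did. Many named genes were picked for small p, large change, or narrow intervals, so these counts do not measure the stability of all genes. No paired analysis was possible because the running numbers of the count columns match no sample label. Depth limits scarce genes most, since 868 genes had a mean under 1 CPM.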
